A study of Homo sapiens with 3 samples.

Results

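Genes for the axoneme, the microtubule core of motile cilia and sperm flagella, were examined in maps of EP300 made by chromatin immunoprecipitation and sequencing (ChIP-seq) in naive human embryonic stem cells. The genes were chosen by name: every gene symbol in the deposited peak tables that starts with CFAP, DRC, DNAH, DNAI, DNAAF or RSPH and continues with a number and at most 1 letter was a member. This gave 60 members of the 29697 gene names with a peak in either EP300 sample. The set was picked because its promoter peaks had been seen to be weak, so their strength is described here and supports nothing.

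Both EP300 samples came from H9 cells, an established human embryonic stem cell line of wild-type genotype. The cells were kept in the naive state in PXGL, which is N2B27 medium with the inhibitors PD0325901, XAV939 and Gö6983 and with human LIF (10 ng/mL), and grew over feeder cells (MEF, mouse embryonic fibroblasts). Chromatin was crosslinked with 1% formaldehyde for 10 min and precipitated with an antibody against EP300, and 1 input sample had no antibody. The labels give no treated or mutant group. They name no separate cultures behind the 2 EP300 samples, and differences between these may be technical only. The share of feeder DNA was not tested.

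EP300 is a histone acetyltransferase that is recruited to active promoters and enhancers by transcription factors. Motile cilia beat because axonemal dyneins slide the outer microtubule doublets against each other. Outer and inner dynein arms are built from heavy, intermediate and light chains, which assembly factors fold and combine in the cytoplasm before transport into the cilium. Radial spokes, the nexin-dynein regulatory complex and the central apparatus set the pattern of beating. Most of these genes are switched on in multiciliated epithelia and in spermatids, where RFX factors and FOXJ1 act on their promoters. Pluripotent stem cells carry at most an immotile primary cilium.

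A peak is 1 interval called in 1 sample. Its fold enrichment is the authors' own signal value at the summit, read as a ratio over background and used here to describe and rank peaks within a list. Replicate 1 held 188 member peaks of 65276 peaks in all, and replicate 2 held 176 of 64896. Of the member peaks, 67.0% in replicate 1 and 72.2% in replicate 2 overlapped a peak of the other replicate, against 74.5% and 73.9% of all peaks in replicates 1 and 2. A region is a group of overlapping peaks from both replicates, and it is called a promoter region where both lists annotate it within 3 kb of a transcript start of the gene. A region's percentile is the lower of the percentiles its fold holds among all peaks of each replicate.

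The bases upstream of the RefSeq starts of 5 members (GRCh38.p14) show the range of promoters met in this set. DNAH14 (chr1:224929404-224929653, plus strand) had the strongest promoter region and holds none of the motifs searched. CFAP298 (chr21:32612378-32612627, minus strand) and CFAP251 (chr12:121918342-121918591, plus strand) carry an RFX half-site and an ETS motif close to the start. The DNAI1 sequence (chr9:34458555-34458804, plus strand) reaches back past the start of FAM219A, which is read in the opposite direction. DNAH1 (chr3:52316069-52316318, plus strand) holds a full RFX site but no EP300 region over it. Each sequence is given 5′ to 3′ on the strand of its gene and ends at the base before the start. Capitals mark matches, on either strand, to the RFX, ETS, GC box and NF-Y motifs whose letters are given with the motif shares.
DNAH14: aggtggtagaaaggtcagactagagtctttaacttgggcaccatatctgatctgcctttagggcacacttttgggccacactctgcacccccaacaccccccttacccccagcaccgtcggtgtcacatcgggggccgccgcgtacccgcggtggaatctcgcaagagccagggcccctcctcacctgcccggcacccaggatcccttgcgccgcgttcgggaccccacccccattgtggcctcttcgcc
CFAP298: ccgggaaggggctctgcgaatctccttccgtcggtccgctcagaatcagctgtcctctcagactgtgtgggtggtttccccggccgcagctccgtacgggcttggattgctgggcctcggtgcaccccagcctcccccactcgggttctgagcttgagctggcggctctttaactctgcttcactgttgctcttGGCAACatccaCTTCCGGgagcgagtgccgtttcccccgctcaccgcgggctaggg
CFAP251: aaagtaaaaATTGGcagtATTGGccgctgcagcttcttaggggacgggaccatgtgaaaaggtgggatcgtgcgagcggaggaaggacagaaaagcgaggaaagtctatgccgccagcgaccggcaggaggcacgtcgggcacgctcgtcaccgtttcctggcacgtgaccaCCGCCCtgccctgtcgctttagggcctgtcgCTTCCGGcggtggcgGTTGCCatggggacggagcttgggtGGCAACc
DNAI1: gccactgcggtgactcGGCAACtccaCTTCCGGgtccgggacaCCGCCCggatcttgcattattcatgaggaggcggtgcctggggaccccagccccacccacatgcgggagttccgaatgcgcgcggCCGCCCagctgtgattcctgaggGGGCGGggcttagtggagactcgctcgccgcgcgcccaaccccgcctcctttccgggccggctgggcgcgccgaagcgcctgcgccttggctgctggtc
DNAH1: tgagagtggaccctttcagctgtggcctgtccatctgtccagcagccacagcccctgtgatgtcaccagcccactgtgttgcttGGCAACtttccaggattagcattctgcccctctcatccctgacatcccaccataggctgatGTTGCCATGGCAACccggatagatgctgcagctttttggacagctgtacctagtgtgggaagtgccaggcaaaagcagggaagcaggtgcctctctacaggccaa

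Of the 60 members, 47 had a reproducible promoter region (78.3%), against 87.6% of all coding genes with a peak in either list. In 8 further members promoter peaks of the replicates did not overlap, and 5 members had no promoter peak at all. The median fold of member promoter peaks was 4.51 in replicate 1 (n = 112) and 4.83 in replicate 2 (n = 102). Over all promoter peaks it was 5.67 in replicate 1 (n = 31239) and 5.71 in replicate 2 (n = 31165). The median percentile was 49.8 in replicate 1 and 55.2 in replicate 2 for the members, and 65 and 65.1 in replicates 1 and 2 for all promoter peaks. Member promoter peaks were thus spread over the whole ranking, with fewer near its top. This is the difference for which the set was picked.

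**Figure D1:**
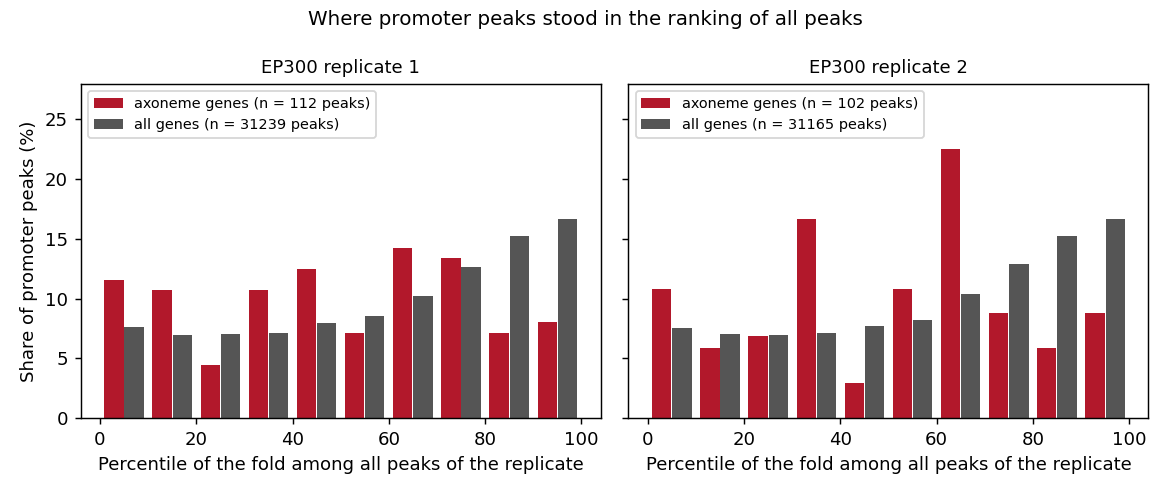
Share of promoter peaks (%) in bins of 10 percentiles of the fold among all peaks, for axoneme genes (red) and for all genes (grey), in each EP300 replicate. In the highest bin stood 8.04% of axoneme gene promoter peaks and 16.6% of all promoter peaks in replicate 1, and 8.82% and 16.7% in replicate 2.

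The strongest promoter region of each member was compared with those of all coding genes. The median percentile was 65.4 over the 47 members and 80.3 over 13363 coding genes. Above percentile 90 stood 6 of 47 members (12.8%), against 25.8% of coding genes. Below percentile 50 stood 13 of 47 members (27.7%), against 13.9% of coding genes. The set therefore held strong, middling and weak promoters, and 28 of the 47 lay between these limits.

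In the strongest promoter region of each member the replicates gave close values. These regions were picked by the lower percentile of the replicates, which favours agreement. Some other promoter regions differed more, such as one inside DNAH1 (2.55 in replicate 1, 6.34 in replicate 2) and the start region of CFAP221 (4.53 and 2.76). Of the 47 members, 23 had the higher fold in replicate 1 and 24 in replicate 2. The folds differed by more than 1.5 times between replicates in 1 member, DNAI2. In 60 of the 83 promoter regions the summits of the replicates lay at most 100 bp apart, and the median over the 83 was 57 bp. No share over all coding genes stands beside these counts.

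**Figure D2:**
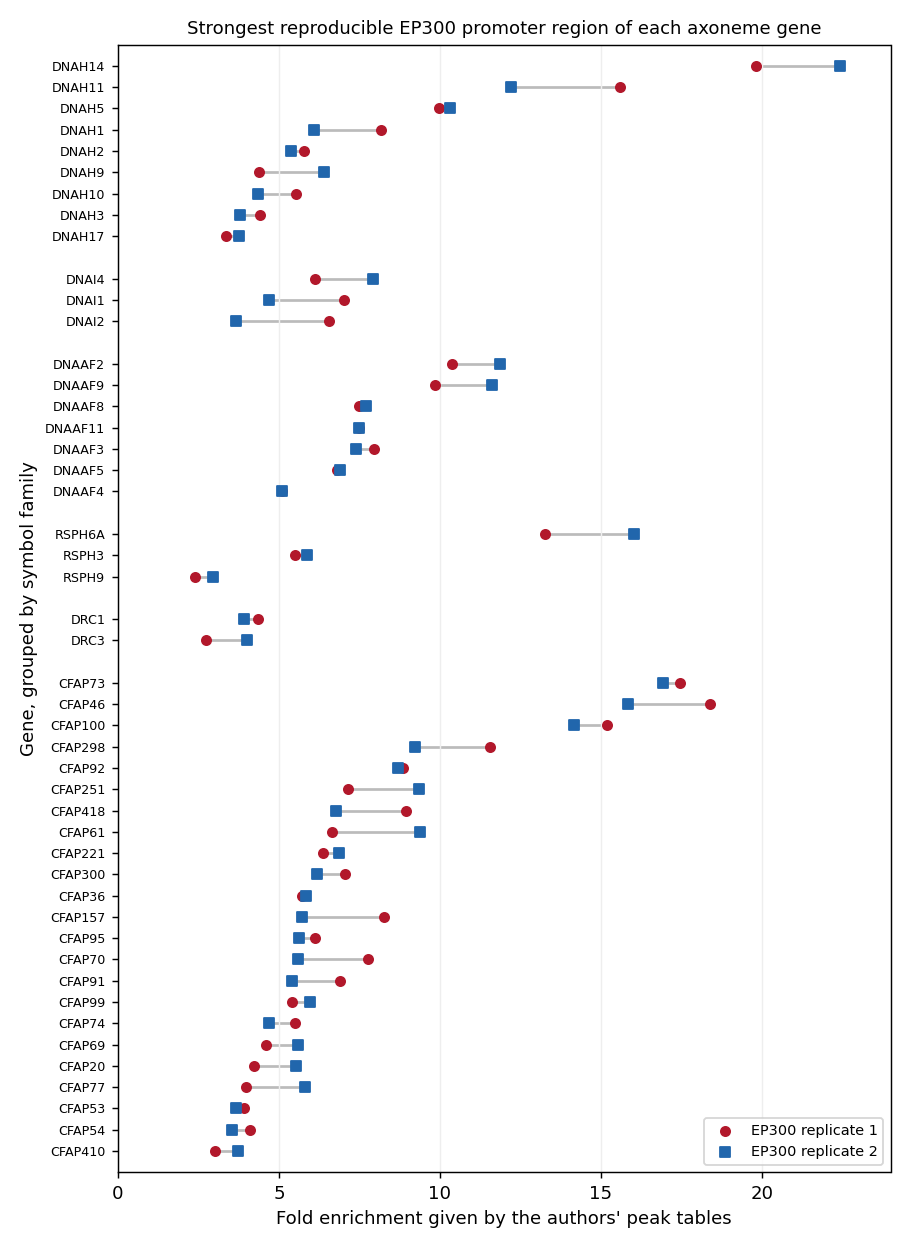
Fold enrichment of the strongest reproducible promoter region of each of 47 axoneme genes, grouped by symbol family. Circles are EP300 replicate 1 and squares replicate 2. The folds ran from 2.39 and 2.96 at RSPH9 to 19.8 and 22.4 at DNAH14.

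Dynein heavy chains are the motors of the arms, and 9 of 10 members of this family had a promoter region. DNAH14, a heavy chain whose place in the axoneme is less well known, led the whole set, with a fold of 19.8 in replicate 1 and 22.4 in replicate 2 over its start on chromosome 1. The outer arm heavy chain gene DNAH11 followed at 15.6 in replicate 1 and 12.2 in replicate 2. DNAH5, the outer arm heavy chain gene often mutated in primary ciliary dyskinesia, had 9.98 in replicate 1 and 10.3 in replicate 2. These 3 genes stood apart from the other heavy chain genes, none of which passed 8.16 in either replicate. The DNAH5 region lay at the outermost RefSeq end of the gene, and the start in the promoter table had none.

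The inner arm heavy chain genes were lower. DNAH1 had 8.16 in replicate 1 and 6.10 in replicate 2 in a region 747 bp from a RefSeq start. DNAH2 had 5.80 in replicate 1 and 5.39 in replicate 2, and DNAH10 had 5.52 in replicate 1 and 4.37 in replicate 2. DNAH3 had 4.41 in replicate 1 and 3.79 in replicate 2 in a promoter region inside the gene, far below the region over its outermost start that was assigned to a neighbour. The outer arm genes DNAH9 and DNAH17 were also low. DNAH9 had 4.39 in replicate 1 and 6.41 in replicate 2, in a region 256 kb downstream of its outermost start, and had no region at a RefSeq start. DNAH17, a heavy chain of sperm flagella, had 3.35 in replicate 1 and 3.75 in replicate 2, in a region 127 kb downstream of its start. The region at the DNAH17 start had 2.49 in replicate 1 and 3.14 in replicate 2. The inner arm gene DNAH7 had no promoter peak, and its 2 peaks, an intron peak with a fold of 4.08 in replicate 2 and a distal peak with a fold of 3.76 in replicate 1, lay in different places.

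All 3 intermediate chain members had a promoter region. DNAI4, an intermediate chain of an inner arm, had 6.13 in replicate 1 and 7.92 in replicate 2. DNAI1 and DNAI2 encode the intermediate chains of the outer arm. The strongest DNAI1 region lay inside the gene, with 7.02 in replicate 1 and 4.68 in replicate 2, and the one near the RefSeq start had 4.48 and 5.49. DNAI2 had 6.55 in replicate 1 and 3.68 in replicate 2, the highest ratio between replicates among the strongest promoter regions of the 47 members.

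The assembly factor genes had the highest median of the families with more than 3 members, at a percentile of 76.5, with promoter regions in 7 of 8. DNAAF2, a co-chaperone of dynein arm assembly, had 10.4 in replicate 1 and 11.9 in replicate 2. DNAAF9, whose Tetrahymena counterpart packages outer arm dynein for transport, had 9.84 in replicate 1 and 11.6 in replicate 2. DNAAF8 had 7.48 in replicate 1 and 7.71 in replicate 2. DNAAF5 had 6.79 and 6.89 in replicates 1 and 2, DNAAF11 had 7.48 and 7.50, and DNAAF3 had 7.96 and 7.40. These are all factors of dynein arm assembly, and their levels lay close together. DNAAF4 had 5.10 in replicate 1 and 5.11 in replicate 2. DNAAF4 was the lowest of those with a region, at percentile 58.8. The regions of DNAAF11, DNAAF3 and DNAAF4 lay inside the gene, 27.5, 5.51 and 9.49 kb downstream of the outermost RefSeq start. Only 4 of the 8 members had a region assigned to them within 1 kb of a RefSeq start. DNAAF1 had no promoter peak under its own name.

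Radial spokes pass signals from the central apparatus to the dynein arms. RSPH6A, a spoke protein of sperm flagella, had 13.3 in replicate 1 and 16.0 in replicate 2, in a wide region that covers the RefSeq start, with the summit upstream of it. RSPH3 had 5.50 in replicate 1 and 5.88 in replicate 2. RSPH9, a component of the spoke head, had the weakest promoter region of the set, with 2.39 in replicate 1 and 2.96 in replicate 2. RSPH10B had a promoter peak with a fold of 5.71 in replicate 2 alone, and RSPH14 one of 3.13 in replicate 2 alone. The DRC genes belong to the nexin-dynein regulatory complex, which links neighbouring doublets, and the 3 of them that are members were low. DRC1 had 4.36 in replicate 1 and 3.92 in replicate 2. DRC3 had 2.72 in replicate 1 and 4.0 in replicate 2, and DRC7 a single promoter peak of 3.68 in replicate 2.

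The CFAP symbols cover many structures, and 23 of 31 members had a promoter region. CFAP73 and CFAP100, which in Chlamydomonas form a complex that acts on the inner arms, were both among the 4 highest members. CFAP73 had 17.5 in replicate 1 and 16.9 in replicate 2, and CFAP100 had 15.2 in replicate 1 and 14.2 in replicate 2. CFAP46, a protein of the central apparatus in Chlamydomonas, had 18.4 in replicate 1 and 15.9 in replicate 2. In all 3 of these genes the strongest region lay inside the gene and not at its start. CFAP298, needed for dynein arm assembly, had 11.6 in replicate 1 and 9.22 in replicate 2 over its start.

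Another 15 CFAP genes lay between percentile 44.1, at CFAP20, and percentile 81.6, at CFAP92. CFAP92 had 8.86 in replicate 1 and 8.71 in replicate 2, and CFAP61 had 6.65 and 9.39. Near another RefSeq start of CFAP92 lay a stronger region that was not assigned to it, with 10.9 in replicate 1 and 13.9 in replicate 2. CFAP91 and CFAP251 belong in Chlamydomonas to a complex at the base of the radial spokes. CFAP91 had 6.89 in replicate 1 and 5.42 in replicate 2, and CFAP251 had 7.14 and 9.35 inside the gene and 7.45 and 5.01 over its start. CFAP300, a dynein arm assembly protein, had 7.06 in replicate 1 and 6.19 in replicate 2. CFAP221 and CFAP74, both of the central apparatus in Chlamydomonas, had their strongest promoter regions inside the gene. CFAP221 had 6.38 in replicate 1 and 6.87 in replicate 2, and CFAP74 had 5.51 and 4.70. CFAP69 had 4.59 and 5.59 in replicates 1 and 2, over its start.

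The lower end of the CFAP genes held CFAP77 (3.98 in replicate 1, 5.81 in replicate 2), CFAP53 (3.92 and 3.66), CFAP54 (4.09 and 3.54) and CFAP410 (3.01 and 3.73). CFAP53 is a protein inside the doublet microtubules, and CFAP54 belongs to the central apparatus in Chlamydomonas. CFAP46 and CFAP54, both of that apparatus, stood near opposite ends of the set. CFAP418, CFAP410 and CFAP36 carry the same prefix but are known mainly from photoreceptors or immotile cilia. CFAP418 had 8.96 in replicate 1 and 6.78 in replicate 2, and CFAP36 had 5.73 and 5.84.

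Of the 8 members whose promoter peaks did not overlap between replicates, 7 had them in 1 replicate alone. CFAP43, linked in Tetrahymena and Chlamydomonas to the tether of the inner arms, had 4.76 in replicate 1 alone, and its partner CFAP44 had 3.90 in replicate 2 alone. CFAP97 had 3.74 in replicate 1 alone, and CFAP52, a protein inside the doublet microtubules, had 3.22 in replicate 2 alone. CFAP65 had promoter peaks with folds of 3.17 and 3.27 in replicate 1 and of 2.61 in replicate 2, at different places. The highest of these unshared promoter peaks, RSPH10B at 5.71, stood at the median of all promoter peaks of replicate 2. CFAP107, CFAP299, CFAP57, DNAAF1 and DNAH7 had no promoter peak. CFAP299 still had a reproducible intron region, with 7.93 in replicate 1 and 6.91 in replicate 2.

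A promoter annotation did not always mean the start of the gene. Of the 83 promoter regions, 38 lay within 1 kb of a RefSeq start of their own gene and 45 lay elsewhere, near starts of other annotated transcripts or farther from the start. The 38 regions, in 37 genes, had a median fold of 6.60 in replicate 1 and 5.76 in replicate 2. The 45 others, in 22 genes, had 4.41 in replicate 1 and 4.82 in replicate 2. The strongest promoter region lay away from the RefSeq start in 18 of the 47 members. The same shares over all coding genes were not taken, so these counts are not shown to be particular to the set.

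**Figure D3:**
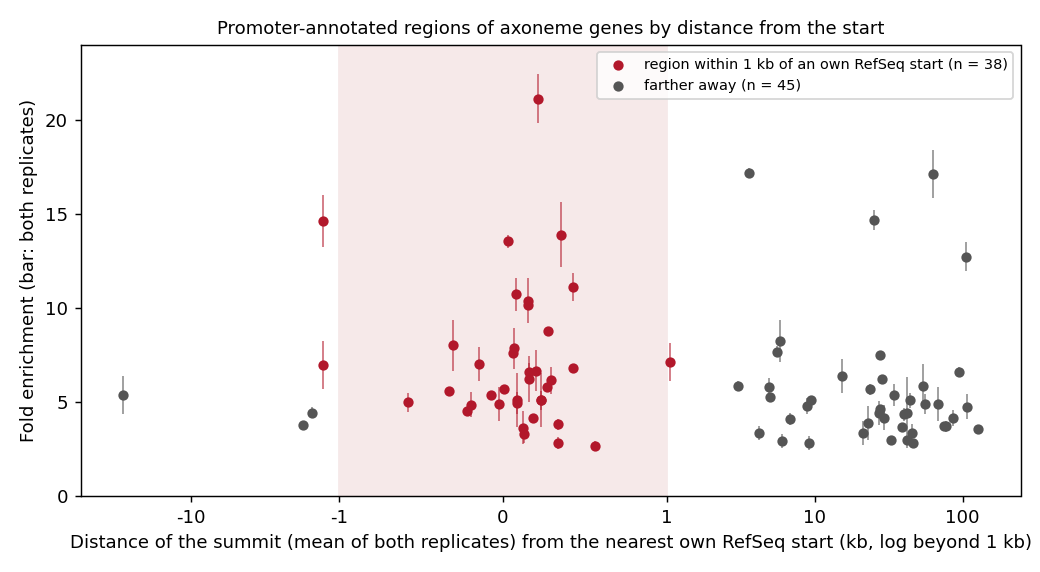
Fold enrichment of the 83 promoter regions against the distance of their summit from the nearest RefSeq start of the same gene (kb, linear within 1 kb and logarithmic beyond; negative is upstream). Red are the 38 regions with an edge within 1 kb of a start and grey the 45 others; points are the mean of the replicates and bars join their values.

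A few long or peak-rich genes held many of these regions. CFAP46, CFAP74, CFAP99 and DNAH1 together held 24 of the 83 promoter regions. CFAP46 had 18 regions over its length of 134 kb, 9 of them promoter regions, and 24 of 14253 coding genes had as many or more. CFAP74 had 10 regions, CFAP99 had 6 and DNAH1 had 5. Without these 4 genes the median fold of member promoter peaks was 4.76 in replicate 1 (n = 79) and 5.37 in replicate 2 (n = 73).

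In CFAP46 the region over the start had 5.29 in replicate 1 and 5.50 in replicate 2, while the strongest, 62.9 kb downstream, had 18.4 and 15.9. A further CFAP46 region 106 kb downstream had 13.5 in replicate 1 and 12.0 in replicate 2. CFAP100 had a pair of strong regions, one over the start with 13.9 in replicate 1 and 13.2 in replicate 2 and one 25.2 kb downstream with 15.2 and 14.2. CFAP74 and CFAP99 had no region above 7.45 in either replicate. The highest, in an exon of CFAP74, stood at percentile 75.3. The number of regions along a gene and the height of the highest thus varied apart.

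**Figure D4:**
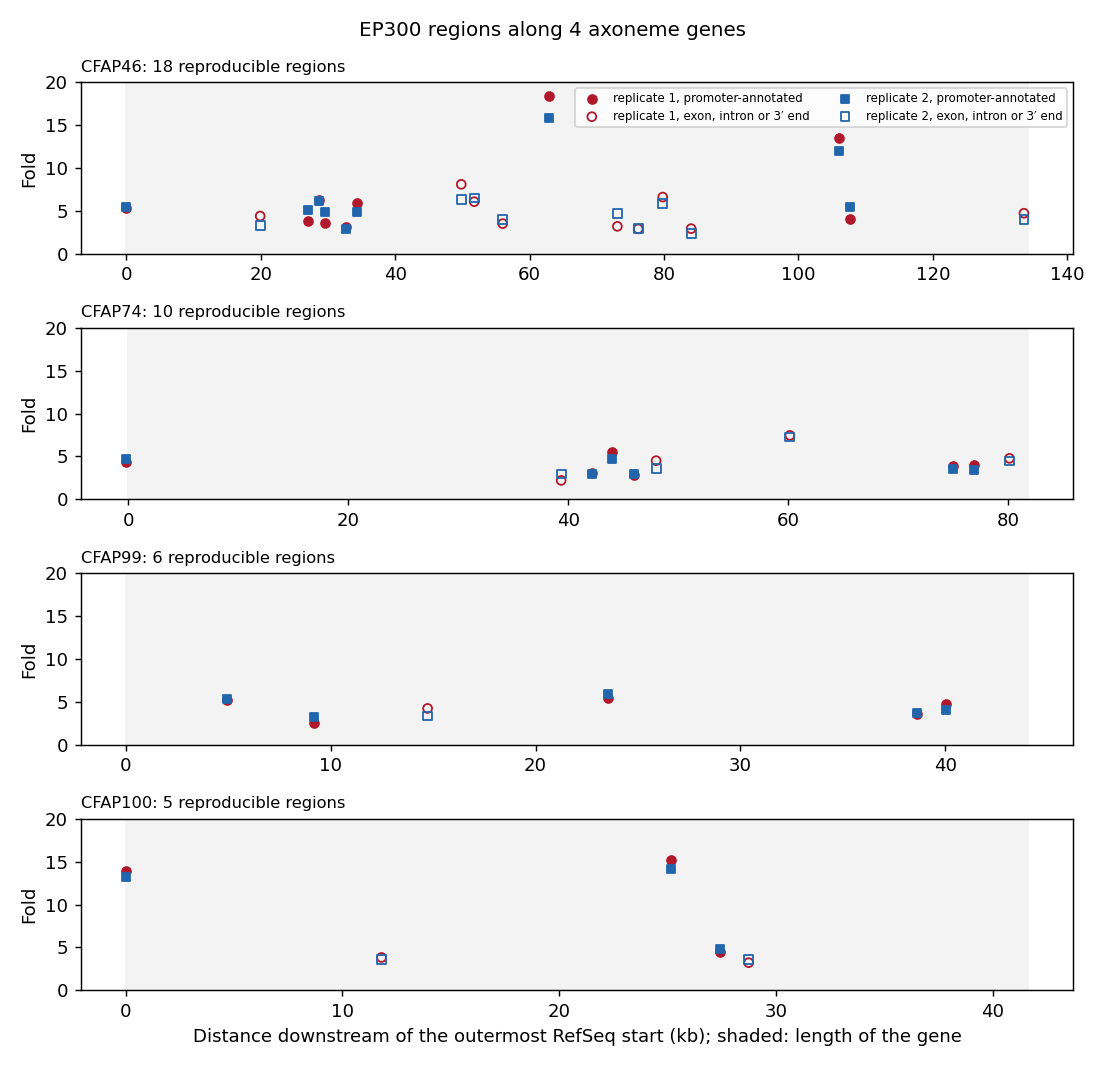
EP300 regions along CFAP46, CFAP74, CFAP99 and CFAP100, by distance downstream of the outermost RefSeq start (kb) and fold enrichment. Circles are replicate 1 and squares replicate 2; filled symbols are promoter regions, open ones lie in exons, introns or the 3′ end, and grey marks the gene. CFAP46 holds 18 regions, with the highest 62.9 kb from the start, and CFAP100 has its 2 high regions at the start and 25.2 kb downstream.

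Member regions that were not promoter regions numbered 42, in 25 genes, which is 33.6% of the 125 member regions, against 46.4% of all regions. They lay in introns in both lists in 17 cases, in exons in 12 and between genes in 4, and 2 were promoters in 1 list or of another gene. The rest had a 3′ UTR or a mixed annotation. The strongest stood in the body of DNAH3, an intron region at chr16:21047913-21049091 with 13.8 in replicate 1 and 11.2 in replicate 2. CFAP54 had an intron region with 11 and 10.8 in replicates 1 and 2, and DNAH9 an exon region with 10.1 and 10.3. CFAP52 had an intron region with 9.83 and 11.7 in replicates 1 and 2. In all 4 of these genes the intragenic region was stronger than any promoter region under the gene's own name. The members with most such regions were CFAP46 with 9, CFAP74 with 4 and DNAH11 with 3.

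The position of peaks was then read from the RefSeq starts, whatever gene the annotation named. A reproducible region lay within 1 kb of a RefSeq start in 45 of 60 members (75%), against 86% of the 15251 coding genes that, like the members, are named at a peak and have a known start. Over all coding genes with a known start, named at a peak or not, the share was 75.9%. Where the region had to overlap the start itself, the count of members was 37, and this was not counted over coding genes. In 8 of the 45 (17.8%) no region at the start was a promoter region of the member, against 5.01% of coding genes named in the peak tables. In each of these 8 cases a gene on the opposite strand had received the peaks.

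RSPH14 was one of them. Its weak promoter peak of 3.13 came from replicate 2 alone, while the region over its outermost start, assigned to BCR, had 13.0 in replicate 1 and 14.8 in replicate 2. The outermost start of DNAH3 lay under a region assigned to LDAF1 with 10.1 in replicate 1 and 12.6 in replicate 2. The start of CFAP97 lay under one assigned to SNX25 with 8.2 and 9.65. Within 1 kb of the CFAP52 start lay a region assigned to STX8, with 8.17 in replicate 1 and 5.52 in replicate 2. DNAAF1, without a promoter peak of its own, had one assigned to HSDL1, with 6.48 and 7.83. The regions of EBNA1BP2 at CFAP57 (named MIR6733 in replicate 1), ZFYVE28 at CFAP99 and TOM1L2 at DRC3 were lower, at 3.84 to 6.72 in both replicates. For DRC3 the TOM1L2 region, with 4.82 and 4.52, was above its own promoter region. The regions at CFAP52, DNAAF1, CFAP99 and DRC3 did not reach the start of the member. DNAH3 overlaps LDAF1 at this start and RSPH14 overlaps BCR. The other neighbours are head to head with the member, starting upstream of it and running away from it. For EBNA1BP2 this holds by one of its starts, and for SNX25 at the CFAP97 start given above. At the outermost CFAP97 start SNX25 overlaps the gene, and the region there had 6.40 in replicate 1 and 5.25 in replicate 2.

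The same arrangement hid other genes of these families from the peak tables' names. RefSeq lists 95 coding genes with such a symbol, of which 35 were no members. In 12 of these 35 a region within 1 kb of the start was assigned to a neighbour on the opposite strand. In 11 of the 12 the starts were head to head. Neither count has beside it a share over all coding genes named at no peak, so neither is shown to be particular to these families. The pairs include CFAP58 with ITPRIP (55 bp between starts, folds of 12.0 and 10.9 in replicates 1 and 2), CFAP96 with UFSP2 (290 bp, 13.8 and 10.8) and DRC10 with TPCN1 (370 bp, 13.6 and 16.3). DNAH6 with SUCLG1 had 9.25 and 10.2, and DNAAF10 with PNO1 had 11.2 and 10.2. DRC4, which overlaps DBNDD1, had 11.3 and 10.6 in the region assigned to that neighbour. At another start DRC4 had a weaker region under its older symbol GAS8, with 3.73 in replicate 1 and 4.62 in replicate 2. Its name was thus not hidden by the neighbour alone. Over all 12 genes, with the DBNDD1 region counted for DRC4, the median fold was 10.0 in replicate 1 and 10.4 in replicate 2. The regions assigned to members at their own starts had medians of 6.60 and 5.76. Of the 12 regions, those at DRC10, CFAP184 and CFAP119 lay within 1 kb of the gene's start but did not reach it. Where a region covers both starts, nothing measured here tells to which gene of the pair it belongs.

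In another 8 of the 35 a region at the start carried an older symbol of the same gene. DRC8, written EFCAB2, had 12.5 in replicate 1 and 11.6 in replicate 2, and CFAP68, written C11orf1, had 10.3 and 11.8. DRC12, written CCDC153, had 2.55 and 4.42. No region was found at the start of 13 genes, which were CFAP126, CFAP141, CFAP144, CFAP161, CFAP206, CFAP45, CFAP47, DNAAF6, DNAH8, DNAI3, DNAI7, DRC11L and RSPH4A, and 2 had no known strand (DRC2 and RSPH1). Over the 93 family genes with a known start, 65 had a region there (69.9%), against the same 75.9% of coding genes.

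Among the 83 promoter regions assigned to members, 12 (14.5%) lay within 1 kb of a start on the opposite strand, against 20.5% of promoter regions of coding genes. The 12 were all among the 38 regions at a RefSeq start of the member, so the 45 regions elsewhere lower this share. All 12 of these regions held the neighbour's start. In 7 genes the neighbour was head to head. DNAI4 started 134 bp from MIER1, DNAAF8 266 bp from ANKS3 and DNAI1 235 bp from FAM219A, and DNAH14, CFAP100, CFAP69 and CFAP46 had a long noncoding RNA gene upstream. It started 83 bp from DNAH14, 111 bp from CFAP100, 43 bp from CFAP69 and 797 bp from CFAP46. The strongest member region, at DNAH14, and the start region of CFAP100 were thus both shared with a noncoding transcript. In the other 5 the neighbour overlapped the member, namely PRKAR1B at DNAAF5 and noncoding genes at CFAP20, CFAP91, RSPH3 and CFAP418. The lowest fold in these 12 regions was 4.22 in replicate 1, at CFAP20, and 5.42 in replicate 2, at CFAP91, and the highest was at DNAH14 in both.

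Motifs were searched on both strands in RefSeq promoter windows of 300 bases, from 250 before the start to 50 after it. Windows were at hand for 46 of the 60 members, 58 windows in all, and for 15812 coding genes, 22132 windows in all. RFX factors bind the half-site GTTGCC, and 34.5% of member windows held it, against 12.6% of all coding windows. It was present in 39.4% of the 33 member windows with a region over them and in 28% of the 25 without. Over all coding windows these shares were 12.6% with a region and 12.6% without. Over the windows of all family genes, members or not, it was in 40.8% of those with a region and 46.8% of those without, so the order of the classes among the members did not hold for the whole family. The full RFX site, GTTNCC and GGNAAC with 0 to 3 bases between, overlaps the half-site and was found in 1 member window, at DNAH1, which has no region over it, and in 0.804% of all coding windows. Among all family windows it was in 1 with a region and 5 without.

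Other motifs sorted differently. The ETS motif CCGGAAG was in 30.3% of member windows with a region and 4% of those without, against 17.2% and 4.4% of all coding windows with and without a region. The NF-Y motif CCAAT was in 21.2% of member windows with a region and 48% of those without, against 32.1% and 39.5%. The GC box GGGCGG was in 69.7% and 56% of member windows with and without a region, against 73.4% and 23.6%. The forkhead motif TGTTTAC, the NRF1 motif CGCATGCG and TATAAA were each in at most 3 member windows, all without a region, and in 2.85%, 2.50% and 9.46% of all coding windows. A match is a run of letters and not a bound site, and members with several starts count more than once.

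**Figure D5:**
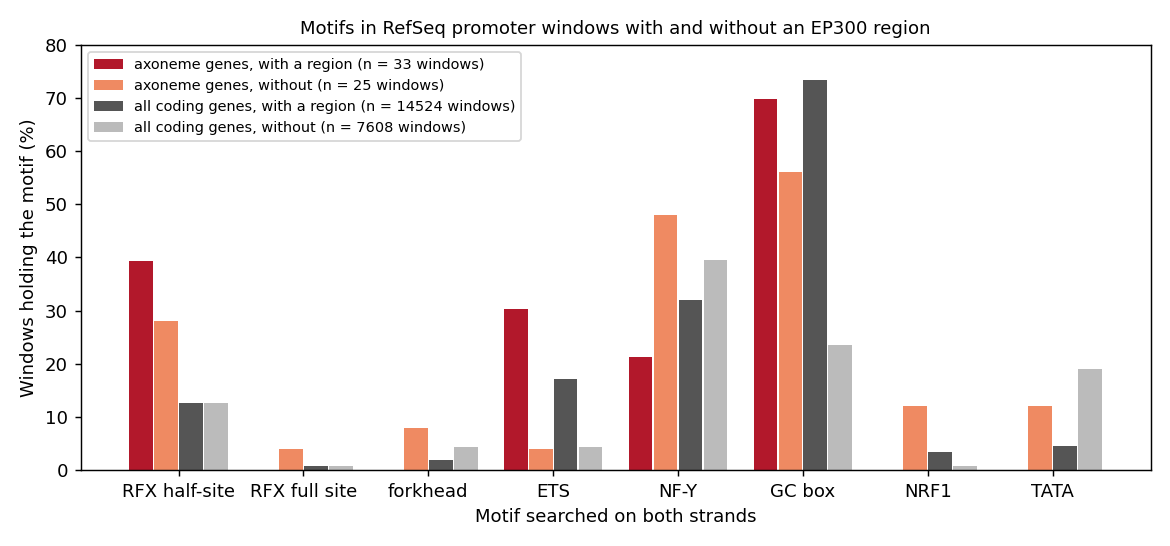
Share (%) of RefSeq promoter windows that hold each motif, for axoneme genes with and without an EP300 region over the window and for all coding genes with and without one. The RFX half-site is in 39.4% and 28% of axoneme gene windows and in 12.6% of either class of all coding windows, while the ETS motif is in 30.3% of axoneme gene windows with a region and 4% of those without.

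Base composition followed the presence of a region. Member windows with a region had a median of 65.7% G and C and 25 CpG dinucleotides, against 56.3% and 16 in member windows without one. All coding windows with a region had 66.7% and 27, and those without had 50% and 5. Member windows without a region were thus richer in CpG than other coding windows without one. In the sequences shown above, the 250 bases before the DNAI1 start held 27 CpG and those before the DNAH1 start held 1.

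Other genes of cilia were read from lists written apart from the name rule. Members were left out of them, though the list of other axoneme genes holds some of the family genes above under older symbols. Of 81 other axoneme, docking and assembly genes, 43 had a promoter region under a name of their own (53.1%), against 66.9% of all RefSeq coding genes. The genes of all lists were also sought under other symbols, while the 66.9% counts current symbols alone. Coding genes named at peaks by an older symbol are missed there, which can only lower the 66.9%. Of the 77 with a known start, 51 had a region there (66.2%), against 75.9% of coding genes. The highest were IQUB, a radial spoke protein, with 22.4 in replicate 1 and 22.3 in replicate 2, DYNLT5 with 19.6 and 22.9, and ODAD2, a docking complex protein, with 21.1 and 19.9. Promoter regions were found in 26 of 33 intraflagellar transport genes (78.8%, against the same 66.9% of coding genes), led by IFT27 (13.8 in replicate 1, 13.2 in replicate 2), IFT80 (19.2 and 12.9) and KIF17 (11.1 and 17.7), and IFT20, IFT172 and DYNC2LI1 were named at no peak. They were found in 31 of 38 genes of the BBSome and transition zone (81.6%), led by RPGRIP1 (15 and 15.5 in replicates 1 and 2), CC2D2A (14.0 and 15) and MKKS (13.8 and 16.1). These genes serve immotile cilia as well.

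Of 19 genes of the programme that turns on motile cilia, 16 had a promoter region (84.2%, against 66.9% of all coding genes by current symbol). Of the 18 with a peak it was the same 16, beside 87.6% of coding genes with a peak. The highest were E2F5 (15.7 in replicate 1, 17.5 in replicate 2), FOXN4 (14.8 and 19.3) and DEUP1 (15.6 and 12.9). FOXJ1, the forkhead factor that commits cells to motile cilia, was named at no peak in either list. Its strand was not known here, so its start was not searched for regions named after a neighbour. GMNC and CDC20B had no promoter region. MCIDAS, a regulator of the multiciliated state, had 3.47 in both replicates, and CCNO had 3.28 in replicate 1 and 3.79 in replicate 2. Other regulators of the list were higher. MYB had 12.1 in replicate 1 and 15.7 in replicate 2, RFX3 had 8.96 and 10.4, TP73 had 6.79 and 8.33, and RFX2 had 5.72 and 6.25. All 10 pluripotency markers had a promoter region, led by TFAP2C (22.4 in replicate 1, 27.1 in replicate 2), LIN28A (21.0 and 23.9) and PRDM14 (16.2 and 20.9). NANOG had 5.21 in replicate 1 and 6.19 in replicate 2, and SOX2 had 3.69 and 3.63. KLF17 was the lowest of the 10 by percentile, at 9.46, with folds of 2.90 and 6.88. RNA was not measured here.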

How the data were processed

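EP300 ChIP-seq was analysed from 2 deposited peak tables, 1 for each EP300 sample. The input has no table of its own here. The submitters' processing notes name the build GRCh38 and fastp 0.19.11. The aligner, the peak caller and its threshold were not given in the sources used here. ChIPseeker annotated the peaks, per the names of the deposited tables. Per the file headers, the authors give a signal value for each summit, read here as a fold enrichment (a ratio), with p-values and q-values as -log10, and the deposited score column was not used. The tables hold no read counts, so depth is unknown.

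Rows of equal interval were joined and kept their highest fold. Chromosomes 1 to 22 and X were used. Peaks that overlapped by at least 1 bp between replicates made a region. Starts came from the RefSeq promoter table and the outermost RefSeq gene end (GRCh38.p14), with strand from the promoter table or the authors' annotation. For 7252 coding and long noncoding RNA genes, 1134 of them coding, no strand was known. They were left out of counts at starts and of the search for neighbouring starts. Promoter sequences are RefSeq's. Overlap code was tested on simulated data. Python 3.11.15, pandas 2.3.3, numpy 2.4.6 and matplotlib 3.10.9 were used.

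The members, lists and motifs were chosen with earlier results of these data known. With 1 group of 2 samples no test was made, and values stand beside the same over all peaks or genes. Named with full values were the 10 highest and 10 lowest members by promoter region, members with promoter peaks that did not overlap between replicates, the members with most regions outside promoters, those near an opposite-strand start, and the 3 highest genes of other lists. Further genes were named after their values were seen. Alternatives were summit rows kept apart, a fold of at least 5, a -log10 q-value of at least 5, an overlap of 50% of each peak, other windows around starts and each replicate alone.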

Additional observations from a re-analysis of the deposited data

How the results depend on the processing

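The counts of members with a promoter region, 47, and with a region at the RefSeq start, 45, rest on weak peaks. With a fold of at least 5 they were 31 and 29, and regions outside promoters numbered 16 in place of 42. With a -log10 q-value of at least 5 the regions outside promoters numbered 20. In the list of 1 replicate alone, where no overlap is asked for, they numbered 74 to 76. The median fold of member promoter peaks over both lists, 4.67, was 6.64 with a fold of at least 5, 5.72 with a -log10 q-value of at least 5 and 5.26 for peaks within 1 kb of a transcript start, and its percentile, 52.5, was 72.0, 65.2 and 60.7. The share of member peaks found in both lists, 69.6%, was 73.7% over summit rows, 80% with a fold of at least 5, 77.2% with a -log10 q-value of at least 5 and 61.1% with an overlap of 50% of each peak, and has no value for 1 replicate alone. Fold and q limits drop low peaks by construction. The other 39 values, among them the counts near another start, stayed within their spread or within 1.5 times. The count near an opposite-strand start was added after seeing the data. No paired analysis was possible because the EP300 samples form 1 group and the input has no peak table here. Unknown depth and the single antibody limit what a missing peak can show.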
